A study of Caenorhabditis elegans with 59 samples.

Results

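Whole wild-type worms of the N2 strain were compared at the gravid adult stage and at the fourth larval stage (L4). The study's methods give about 68 h after plating on food for gravid adults and 42 h for L4, both at 20 °C. Whether these conditions held for the adult libraries, which it took from earlier work, is not stated. Each stage had 2 small-RNA sequencing (sRNA-seq) libraries. The members are the miRNA strands with a mean of at least 5 CPM (counts scaled to the same total of miRNA counts in every library) over these 4 libraries, which were 220 of the 310 strands in the count table. Of the others, 7 are engineered or deleted forms counted only in a mir-43 mutagenesis experiment, and 83 lay under 5 CPM, 5 of them with no count in any of the 4 libraries. The members nearest to the limit were the miR-231 passenger strand (5.15 CPM) and miR-796 (5.29 CPM), and the nearest strands outside it were miR-2217 (4.80 CPM) and miR-1830 (4.77 CPM). Of the members, 2 had an L4 mean under 5 CPM and are members only through the adults (miR-796 and the miR-231 passenger strand), and 8 had an adult mean under 5 CPM and are members only through L4, among them the passenger strands of let-7 and miR-246. The adult libraries came from earlier published work, whereas the L4 libraries did not, so stage and experiment cannot be told apart in this comparison.

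A miRNA hairpin is cut into a duplex of 2 strands. One, the guide, is kept in an Argonaute protein and directs the repression of mRNAs that match its seed, the bases next to its 5′ end, and the other, the passenger strand, is usually discarded soon after loading. A passenger strand is therefore short-lived, while a guide can persist long after its gene falls silent. In C. elegans, lin-4 and the let-7 family time larval cell fates, the miR-35 family is made in the germline and embryo, and the miR-51 and miR-58 families are abundant through most of life. L4 larvae are building their germline and vulva, while gravid adults carry oocytes and developing embryos.

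The 2 adult libraries held 10595671 and 20538418 miRNA counts, against 4878604 and 4192482 in the L4 libraries. A strand at 5 CPM thus had about 103 counts in the deepest library and 21 in the shallowest. The median SD of log2 CPM between replicates was 0.19 in gravid adults and 0.14 in L4 larvae. Levels are shares of each library's miRNA counts, since the counts of the spike-in RNAs were not part of the values used here. Because whole worms were sequenced, fewer cells of a type and less of an RNA per cell cannot be told apart. Wild-type L4 worms were also sequenced 3 times for the mir-43 experiment, with other index primers and on another sequencing platform, and these libraries are given beside the results that they touch.

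Between gravid adults and L4 larvae, 43 of 220 strands were higher in adults and 44 lower (edgeR, Benjamini-Hochberg adjusted p under 0.05), which is 39.5% of the strands tested (19.5% higher and 20% lower). Before adjustment 114 strands had a p under 0.05. The median log2 fold change over all 220 strands was 0.06. Guide and passenger strands were called unequally: of 114 guides with a counted partner, 26 were higher and 15 lower, whereas of 87 passenger strands 13 were higher and 27 lower. This contrast is not free of how strands were chosen. The guide is the strand with more counts over the 4 libraries compared, and the adult ones were deeper. Some passenger strands, such as those of let-7 and miR-246, are members only through L4. Every one of the 87 called strands had both adult libraries on the same side of both L4 libraries, but so did many others (40.5% of all strands were higher without overlap and 38.2% lower). With either L4 library left out, the calls fell to 12 higher and 21 lower, and 9 of the higher and 16 of the lower strands passed whichever single library was left out. A fit of all 14 wild-type time-course libraries shifted the median to -0.32 and called 30 higher and 99 lower.

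**Figure D1:**
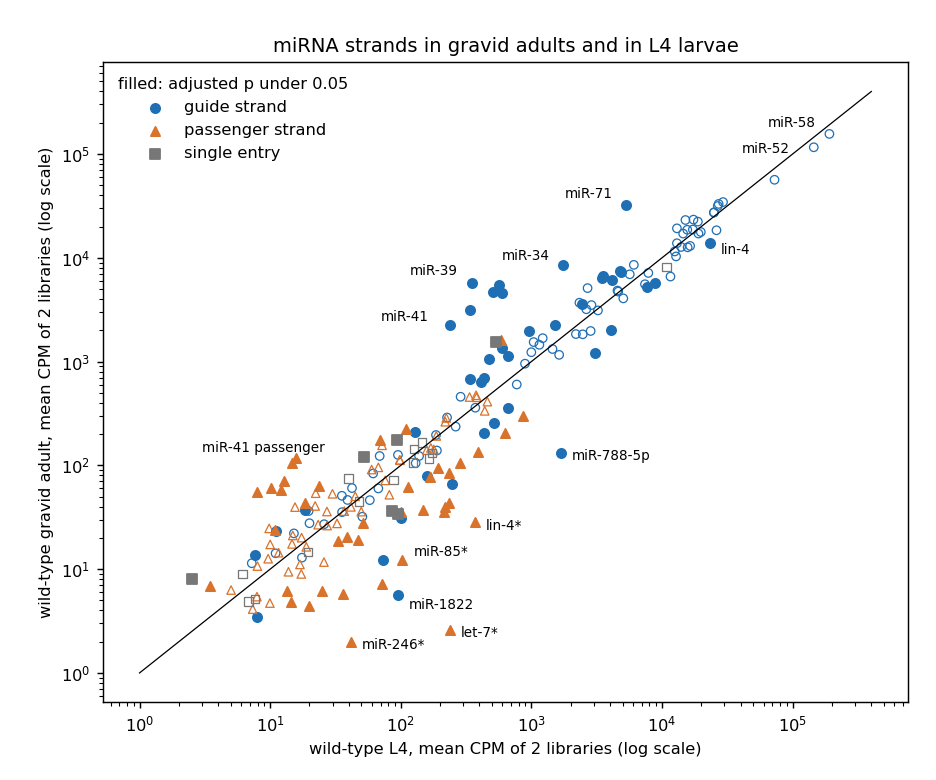
Mean CPM of the 2 gravid adult libraries (vertical, log scale) against that of the 2 L4 libraries (horizontal, log scale) for the 220 strands, with the line of equal levels; filled marks passed an adjusted p of 0.05 and an asterisk in a name marks a passenger strand. The miR-35 cluster, miR-71 and miR-34 lie above the line, and the strands farthest below it are mostly passenger strands, such as that of let-7, at 2.45 and 2.78 CPM in adults and 271 and 203 CPM in L4.

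The largest increases in gravid adults were in the miR-35 family, 8 miRNAs of 1 seed that embryos need for viability. Its 7 members from mir-35 to mir-41 are cut from 1 transcript on chromosome II (WBcel235, 11537608 to 11538404, plus strand), which lies in an intron of Y62F5A.9 on the opposite strand. All 7 rose. miR-39 had 7370 and 4150 CPM in adults, against 347 and 349 CPM in L4 (log2 fold change 4.01 ± 0.29, SE; adjusted p = 0.0012, edgeR). miR-36 had 6740 and 4140 CPM in adults, against 562 and 562 CPM in L4 (3.23 ± 0.25; adjusted p = 0.0012). miR-35 (log2 fold change 3.18), miR-38 (3.16), miR-40 (2.90) and miR-41 (3.23) moved by similar amounts. In each of these 6, adult replicate 1 was above adult replicate 2, yet both stood several-fold above L4, and the adjusted p stayed at or under 0.038 with any single library left out.

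miR-37, from the third hairpin of the same transcript, moved far less than its neighbours. It had 729 and 652 CPM in adults, against 434 and 432 CPM in L4, a log2 fold change of 0.64 ± 0.15 (adjusted p = 0.027, edgeR, and up to 0.15 with 1 library left out, the call being lost without either L4 library). Its passenger strand, in contrast, had 92.1 and 24.8 CPM in adults, against 10.7 and 13.6 CPM in L4 (log2 fold change 2.21 ± 0.64; adjusted p = 0.045, lost without either L4 library or adult replicate 1, at up to 0.21). In early embryos miR-37 averaged 44800 CPM, close to miR-39 (50800 CPM) and miR-40 (49900 CPM), and in L4 it was above miR-39, so it stood apart from its neighbours in the adult libraries. Adults with ebax-1(tm2321) likewise had 3960 and 2120 CPM of miR-37 beside 19000 and 7300 CPM of miR-39.

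miR-42, the eighth member of the family, is cut from another transcript (chromosome II, 11889811 to 11890118, with mir-43 and mir-44) and did not rise. It had 2250 and 1690 CPM in adults, against 3040 and 2650 CPM in L4 (log2 fold change -0.57 ± 0.17; adjusted p = 0.051 by edgeR and 0.029 by DESeq2). Its neighbour miR-43, which carries the miR-2 seed, rose to 2160 and 1780 CPM in adults, against 1100 and 823 CPM in L4 (1.00 ± 0.19; adjusted p = 0.015, and 0.085 without L4 replicate 2). The entry shared by miR-44 and miR-45 had 8670 and 7660 CPM in adults, against 10400 and 11100 CPM in L4 (-0.43 ± 0.14; adjusted p = 0.061). Of this transcript's 3 miRNAs, then, 1 rose and 2 had values below L4 that did not pass, and the miR-44 entry also counts the mir-45 hairpin.

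Of the 7 passenger strands of the mir-35 to mir-41 transcript, 6 rose as well. That of miR-41 had 174 and 63.9 CPM in adults, against 13.5 and 17.9 CPM in L4 (log2 fold change 2.87 ± 0.53; adjusted p = 0.014, edgeR). That of miR-36 missed the threshold, with 78.3 and 29.6 CPM in adults and 20.5 and 24.1 CPM in L4 (1.22 ± 0.47; adjusted p = 0.093). All 6 calls were lost without either L4 library, at adjusted p of up to 0.21. In each of the 6, adult replicate 1 was more than 2 times adult replicate 2.

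Together the miR-35 family took 2.85% ± 0.966 of miRNA counts in gravid adults and 0.586% ± 0.0312 in L4 larvae (SD, n = 2 each). Over wild-type development the family was highest in early embryos (36.4% of counts) and lowest in L3 larvae (0.31%). The 3 other wild-type L4 libraries gave 0.404% to 0.708%, a range that holds both L4 libraries. Adults with glp-4(bn2), which lack most of their germline after 48 h at the restrictive 25 °C, had 0.108% on average. In those adults miR-39 stood at 33.6 and 77.2 CPM, below both L4 libraries. By the stated culture conditions that strain also differs in temperature and age, and the part these play was not tested.

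**Figure D2:**
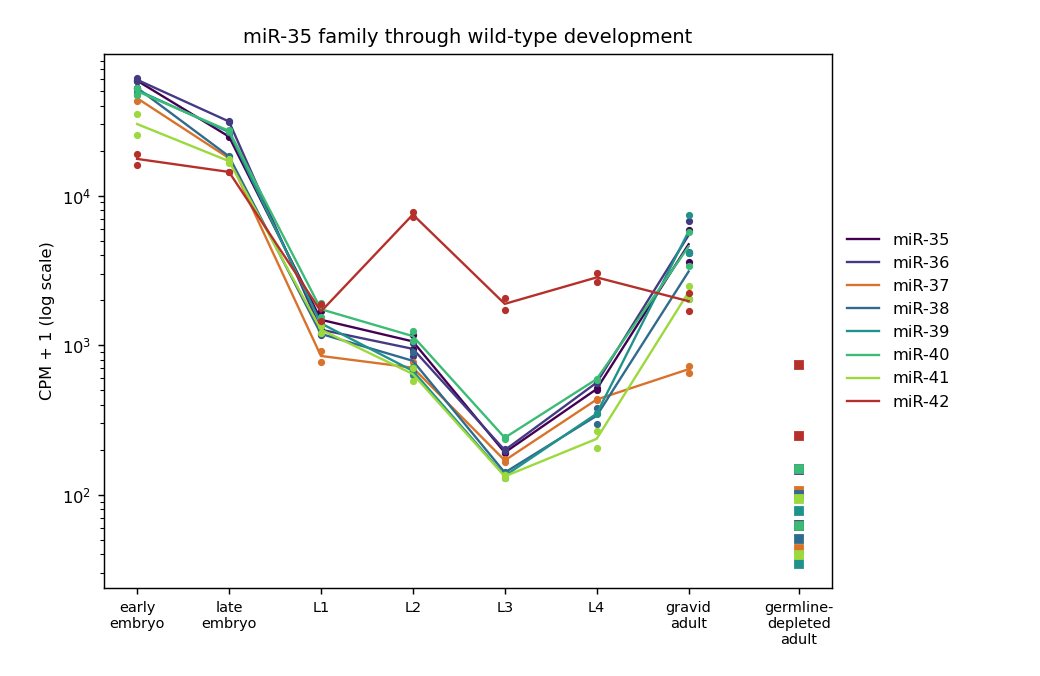
CPM + 1 (log scale) of the 8 miR-35 family members in wild-type worms of 7 stages and in germline-depleted adults with glp-4(bn2); points are single libraries (2 per group) and lines join the means. The members other than miR-37 and miR-42 turn up steeply between L4 and gravid adult, miR-37 ends at 691 CPM, and miR-42 ends at 1970 CPM, below its L4 mean of 2840 CPM.

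Among miRNAs of the worm's later life, miR-71 and miR-34 had the largest rises. miR-71, which promotes longevity and stress resistance and comes from an intron of ppfr-1 on chromosome I, had 33200 and 31700 CPM in adults, against 6670 and 4020 CPM in L4 (log2 fold change 2.58 ± 0.27; adjusted p = 0.0027, edgeR). Its share of all miRNA counts was thus 3.25% on average in adults and 0.534% in L4. Over development it averaged 1120 CPM in early embryos, 33500 CPM in starved L1, 9280 CPM in L2, 14700 CPM in L3 and 5340 CPM in L4, so L4 was the lowest stage after hatching. The L4 libraries of the mir-43 experiment had more of it, 7760, 16400 and 9510 CPM, and against those the adult log2 fold change was 1.53 (adjusted p = 0.012). The passenger strand of miR-71 did not pass, with 454 and 456 CPM in adults and 333 and 339 CPM in L4 (0.41 ± 0.16; adjusted p = 0.095).

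miR-34, the worm member of a conserved family studied in DNA damage and ageing, is cut from a hairpin on the X chromosome (2969752 to 2969848, minus strand) that lies in no other gene. It had 8640 and 8380 CPM in adults, against 1700 and 1780 CPM in L4 (log2 fold change 2.26 ± 0.14; adjusted p = 0.0010, edgeR), and the L4 libraries of the mir-43 experiment had 2650, 1980 and 1300 CPM. Its passenger strand rose with it, to 1900 and 1320 CPM in adults, against 496 and 679 CPM in L4 (1.42 ± 0.25; adjusted p = 0.012, and 0.063 without L4 replicate 1). From L1 to L4 miR-34 stayed between 1410 and 1820 CPM, so its mean moved little until the last step of the series. Germline-depleted adults had 2570 and 2290 CPM of it. Of 8 miRNAs studied in ageing, 3 rose (miR-34, miR-71 and miR-246), 1 fell (lin-4) and 4 did not pass, where 19.5% of all strands rose and 20% fell, with a median log2 fold change of 0.42 beside 0.06 over all strands.

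**Figure D3:**
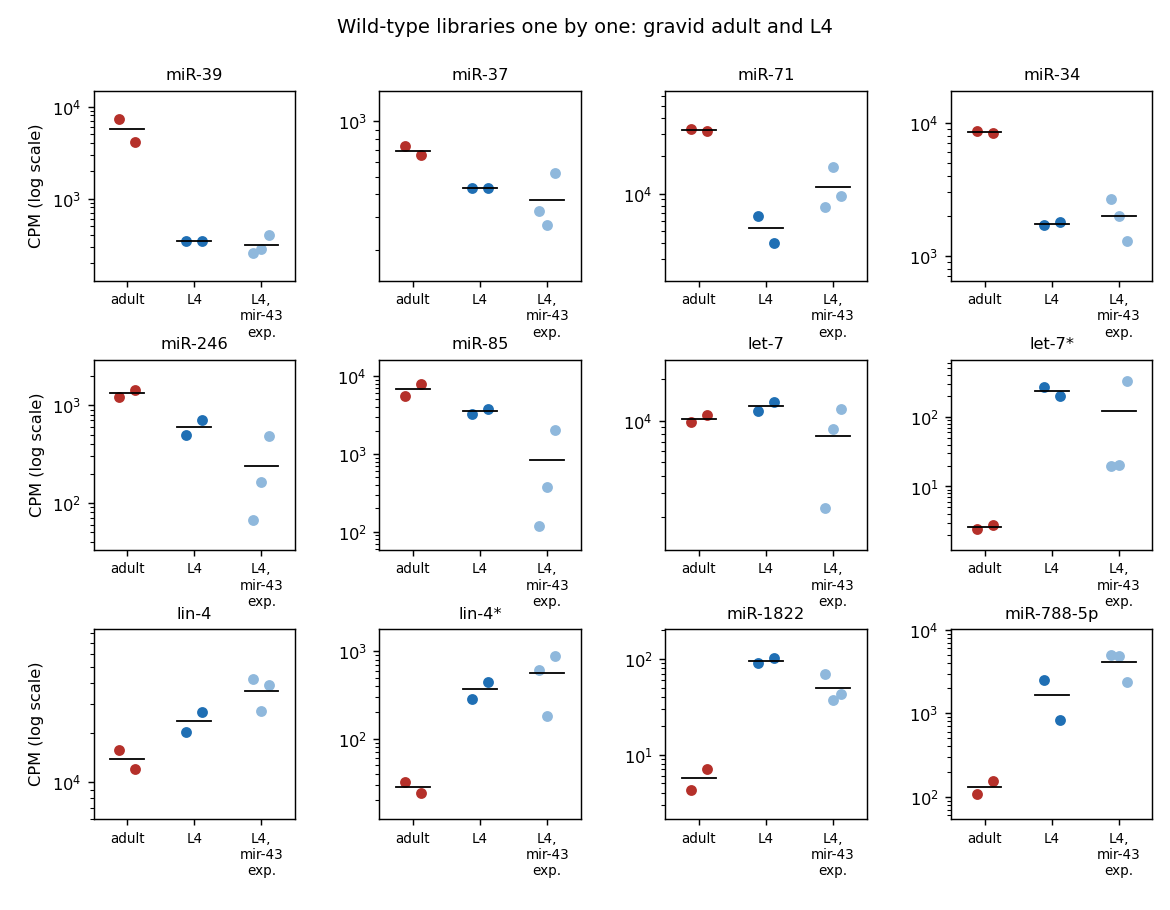
CPM (log scale, a range of its own in each panel) of 12 strands in every wild-type gravid adult library (left, 2), time-course L4 library (middle, 2) and L4 library of the mir-43 experiment (right, 3); bars are means and an asterisk marks a passenger strand. Adults stand apart from all 5 L4 libraries for every strand shown except let-7. The L4 libraries spread widely for let-7, miR-246 and miR-85.

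The let-7 family, named after the miRNA that drives the larva-to-adult switch, had 2 guides that rose and 5 that did not pass. let-7 itself had 9710 and 10900 CPM in adults, against 11800 and 13700 CPM in L4 (log2 fold change -0.34 ± 0.18; adjusted p = 0.18, edgeR). miR-48 averaged 17100 CPM in adults and 19000 CPM in L4 (-0.17 ± 0.15; adjusted p = 0.36), and miR-241, made from the same locus on chromosome V, averaged 1840 CPM in adults and 2190 CPM in L4 (-0.29 ± 0.15; adjusted p = 0.18). miR-84 rose to 5840 and 6390 CPM in adults, against 4360 and 3950 CPM in L4 (0.53 ± 0.16; adjusted p = 0.045). miR-793 rose as well (0.66 ± 0.19; adjusted p = 0.042), whereas miR-794 and miR-795 did not pass (0.04 and -0.34). Both calls were lost without either L4 library or adult replicate 2, that of miR-793 also without adult replicate 1, at adjusted p of up to 0.24, and in a fit of all 14 wild-type libraries of the time course. The family summed to 3.57% ± 0.134 of counts in adults and 3.83% ± 0.158 in L4 (SD, n = 2 each).

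The passenger strand of let-7, a member only through its L4 level, had the largest fall among the 220 strands. It had 2.45 and 2.78 CPM in adults (26 and 57 counts), against 271 and 203 CPM in L4 (1322 and 850 counts), a log2 fold change of -6.50 ± 0.31 (adjusted p = 7.1e-04, edgeR). In earlier stages it appeared with let-7: none was counted up to L1, L2 larvae had 0.472 CPM and L3 larvae 40.5 CPM, while let-7 stood at 15.7 CPM in L2 and 503 CPM in L3. In adults the passenger strand was thus between its L2 and L3 levels while let-7 was at 10300 CPM. The L4 libraries of the mir-43 experiment were uneven, with 20.0, 20.7 and 329 CPM of the passenger strand and 2320, 8720 and 12100 CPM of let-7. Against them the log2 fold change in adults was -5.57 for the passenger strand (adjusted p = 0.040) and 0.42 for let-7 (adjusted p = 0.62), so the fall of the passenger strand held and the direction for let-7 did not.

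The lin-4 family fell. lin-4, the repressor of lin-14 that ends early larval fates, lies in an intron of F59G1.4 on chromosome II (5902254 to 5902347, plus strand) and had 15600 and 12000 CPM in adults, against 20100 and 26700 CPM in L4 (log2 fold change -0.80 ± 0.21; adjusted p = 0.038, edgeR, and up to 0.16 with any 1 library left out). miR-237, which has the same seed, had 1150 and 1290 CPM in adults, against 3010 and 3080 CPM in L4 (-1.34 ± 0.16; adjusted p = 0.0038), and this call held without any 1 library. The lin-4 passenger strand fell more steeply, to 31.9 and 24.4 CPM in adults, against 288 and 446 CPM in L4 (-3.74 ± 0.31; adjusted p = 0.0016). With the L4 libraries of the mir-43 experiment as the reference, all 3 strands also passed, with log2 fold changes of -1.42, -1.41 and -4.35. The passenger strands of miR-48 (-1.58) and miR-241 (-1.15) fell as well, each with adjusted p of 0.016 or less, though both calls were lost without L4 replicate 2, that of miR-241 also without L4 replicate 1, at up to 0.11.

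**Figure D4:**
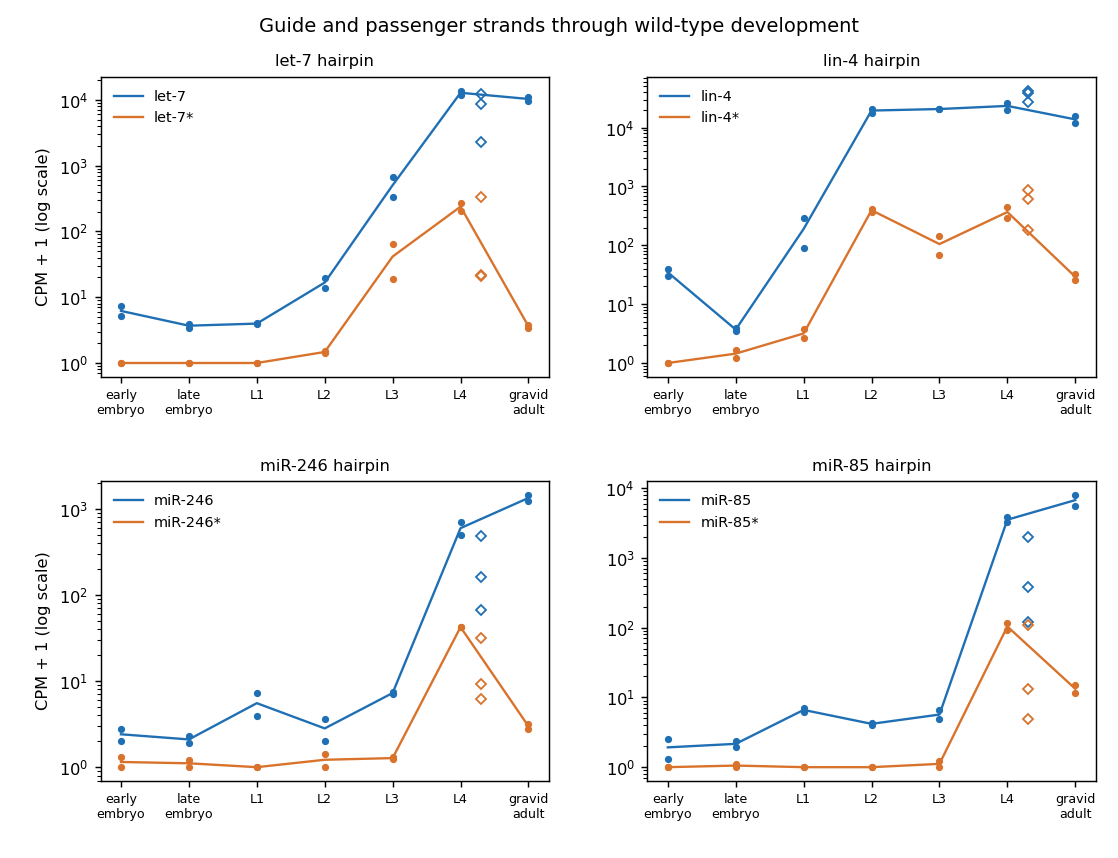
CPM + 1 (log scale) of the guide (blue) and passenger strand (orange, asterisk) of 4 hairpins through wild-type development; points are single libraries, lines join means of 2, and open diamonds are the 3 L4 libraries of the mir-43 experiment. In each hairpin the passenger strand is at its highest or near it in L4 and drops in gravid adults, while let-7 ends at 10300 CPM, miR-246 at 1340 CPM and miR-85 at 6740 CPM.

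miR-246 and miR-85, which averaged at most 6.27 CPM and 5.62 CPM at the stages before L4, rose in adults relative to L4, while their passenger strands fell. miR-246, from a hairpin on chromosome IV (10940134 to 10940230), averaged 6.27 CPM in L3. It had 1230 and 1450 CPM in adults, against 494 and 701 CPM in L4 (log2 fold change 1.14 ± 0.24; adjusted p = 0.021, edgeR, and up to 0.10 without L4 replicate 1 or adult replicate 2). Its passenger strand, a member only through its L4 level, had 2.17 and 1.80 CPM in adults, against 41.6 and 41.3 CPM in L4 (-4.41 ± 0.24; adjusted p = 7.1e-04). miR-85, at 4.68 CPM in L3, had 5510 and 7980 CPM in adults, against 3250 and 3810 CPM in L4 (0.92 ± 0.25; adjusted p = 0.040, lost at up to 0.19 without either L4 library or adult replicate 2). Its passenger strand had 14 and 10.6 CPM in adults, against 92.4 and 114 CPM in L4 (-3.11 ± 0.27; adjusted p = 0.0017). In the L4 libraries of the mir-43 experiment miR-85 stood at 118, 382 and 2010 CPM and miR-246 at 66.4, 163 and 488 CPM. The replicate that had most of both also had most let-7, and against these libraries the passenger strand of miR-85 did not pass (-1.81; adjusted p = 0.33), whereas that of miR-246 did (-2.91; adjusted p = 0.040).

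The balance of the strands was then compared hairpin by hairpin. For 85 hairpins with both strands among the members, the log2 ratio of guide to passenger CPM (1 CPM added to each) was compared with limma. The guide was the strand with more counts over the 4 libraries compared. The passenger strands of let-7 and miR-246 are members only through L4. The ratio was higher in adults for 30 hairpins (35.3%) and lower for 9 (10.6%), or 45.9% in all, and its median change was 0.34. All passenger strands together took 1.01% and 0.738% of counts in adults, against 0.994% and 1.03% in L4, so the summed share in adult replicate 1 lay between the 2 L4 libraries. In the 30 hairpins the median log2 fold change was 0.24 for the guide and -1.51 for the passenger strand. In 17 of them the passenger strand fell while the guide did not pass, in 3 the passenger strand fell while the guide rose (miR-246, miR-85 and miR-252), and in lin-4 both strands fell. The largest shifts were in let-7 (log2 ratio 11.46 and 11.49 in adults, against 5.44 and 6.07 in L4; change 5.72 ± 0.37, adjusted p = 6.3e-09, limma), miR-246 (5.01 ± 0.37), miR-85 (3.89 ± 0.38), miR-235 (3.49 ± 0.35) and miR-81 (3.02 ± 0.38). The first 4 of these held without any 1 library, while that of miR-81 was lost without L4 replicate 2 (adjusted p = 0.070).

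These larger shifts belonged to miRNAs of different kinds. miR-81, of the miR-58 family, averaged 17700 CPM in adults and 19800 CPM in L4 and did not pass (log2 fold change -0.19; adjusted p = 0.31, edgeR), while its passenger strand had 9.53 and 4.97 CPM in adults, against 61.7 and 81.6 CPM in L4 (-3.36 ± 0.38; adjusted p = 0.0032). miR-65, whose hairpin lies in an intron of gcn-1, averaged 13800 CPM in adults and 13000 CPM in L4, while its passenger strand averaged 39.7 CPM in adults and 218 CPM in L4 (-2.49 ± 0.26; adjusted p = 0.0027). For miR-70, in an intron of pmp-5, the guide averaged 27400 CPM in adults and 25000 CPM in L4, and the passenger strand had 55.1 and 31.0 CPM in adults and 248 and 219 CPM in L4 (-2.48 ± 0.31; adjusted p = 0.0042). In the L4 libraries of the mir-43 experiment, 10 germline-enriched miRNAs that include miR-70 summed to at most 1.98% of counts. The miR-70 guide was thus lower there than in the time-course L4 libraries, and its steady level depended on the L4 libraries used. miR-235, which holds progenitor cells quiescent in starved L1, averaged 5100 CPM in adults and 2690 CPM in L4 (0.88 ± 0.36; adjusted p = 0.11), against a fall of its passenger strand by 2.63 on the log2 scale. With 1 L4 library left out, 8 hairpins (without replicate 1) or 5 (without replicate 2) had a higher ratio and none a lower one. Without adult replicate 1 there were 34 higher and 4 lower, and without adult replicate 2 the median change was 0.09. With all 5 wild-type L4 libraries as the reference, 19 had a higher ratio and 4 a lower one, and let-7, miR-246, miR-85, miR-235 and miR-81 were among the higher ones (adjusted p of 0.0018 or less).

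**Figure D5:**
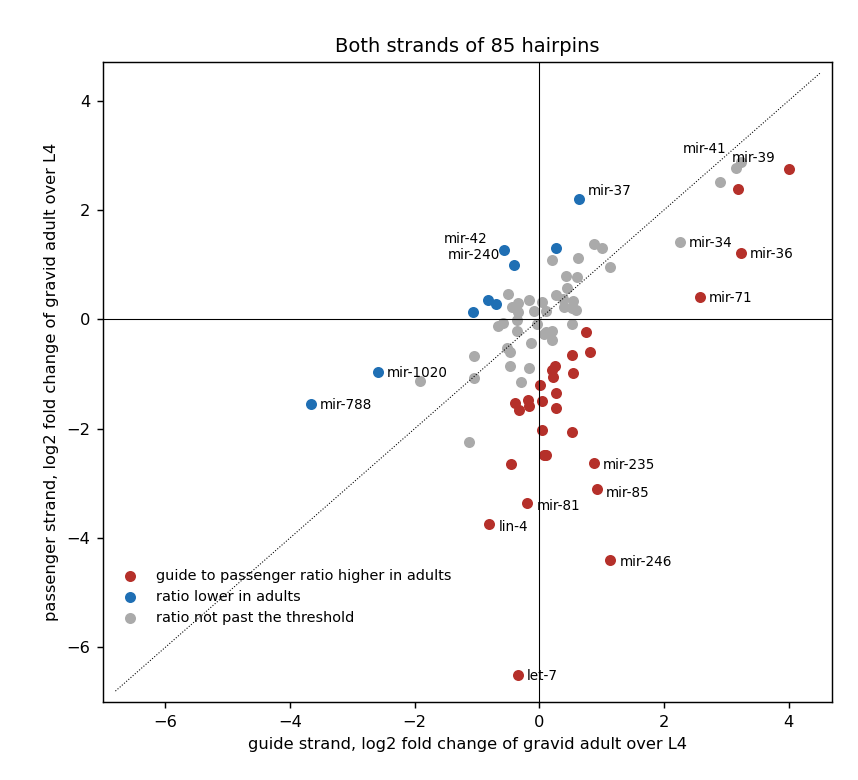
Log2 fold change of gravid adult over L4 for the guide (horizontal) and the passenger strand (vertical) of 85 hairpins, with the line of equal change; colours give the limma call on their ratio. Most hairpins with a higher ratio lie below the line near a guide change of 0, with let-7 lowest at -6.50. Most of the mir-35 cluster lies at the upper right, with mir-37 at a guide change of only 0.64 and mir-36 at a passenger change of 1.22.

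In the opposite direction, 9 hairpins had a lower guide to passenger ratio in adults. miR-788 had the largest shift (-1.98 ± 0.40; adjusted p = 0.0011, limma), then miR-42 (-1.85 ± 0.48; adjusted p = 0.0058) and miR-1020 (-1.57 ± 0.35; adjusted p = 0.0022). For miR-1020 the log2 ratio averaged 0.88 in L4 and -0.68 in adults, so the strand called the guide was the lesser one in adults. For miR-240, a miRNA of the somatic gonad, the guide did not pass (663 and 538 CPM in adults, 670 and 874 CPM in L4; log2 fold change -0.40, adjusted p = 0.17, edgeR), while the other strand rose to 259 and 191 CPM in adults, against 113 and 106 CPM in L4 (1.00 ± 0.21; adjusted p = 0.021, lost without either L4 library at up to 0.14). miR-37, whose passenger strand rose more than the guide, was another (-1.24 ± 0.47; adjusted p = 0.040). All 9 were lost without either L4 library.

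Few guides fell as far as the passenger strands did. miR-1822, which sits in an intron of ZK84.2 on chromosome II (6015534 to 6015627), had 4.25 and 7.01 CPM in adults, against 89.8 and 101 CPM in L4 (log2 fold change -4.07 ± 0.37; adjusted p = 0.0017, edgeR). At all earlier stages it averaged between 70.3 and 182 CPM, and in the L4 libraries of the mir-43 experiment it stood at 68.7, 37.4 and 42.6 CPM, so gravid adults were the lowest of the wild-type stages. Germline-depleted adults had 84.3 and 88.2 CPM. Gravid adults with ebax-1(tm2321) were low as well, at 2.49 and 3.56 CPM, against 46.3 and 49.4 CPM in L4 of that genotype (-3.97; adjusted p = 8.8e-04). For mir-1020, an intronic hairpin in T16G12.1, the strand with more counts over the 4 libraries was also low in adults. It had 10.5 and 14 CPM in adults, against 65.4 and 80.4 CPM in L4 (-2.59 ± 0.30; adjusted p = 0.0032), with 71.3 and 55.9 CPM in germline-depleted adults. Its name carries an asterisk in the count table, and it was the less counted strand in adults. The other strand had 17.5 and 23.0 CPM in adults, against 36.7 and 41.3 CPM in L4.

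The study describes 5 miRNAs as heat-responsive, all of them among its EBAX-1-sensitive miRNAs (those that increased on loss of EBAX-1). They are therefore not a list of heat-responsive miRNAs at large. Of these 5, 4 fell and 1 did not pass, where 20% of all strands fell. Their median log2 fold change was -1.73 beside 0.06 over all strands. miR-788-5p had 108 and 156 CPM in adults, against 2510 and 830 CPM in L4 (-3.67 ± 0.59; adjusted p = 0.0094, edgeR, and 0.055 without adult replicate 1). Its 2 L4 libraries differed 3-fold, yet neither approached the adult level, and the L4 libraries of the mir-43 experiment had 5070, 4870 and 2360 CPM. miR-247 and miR-797, 2 neighbours on the X chromosome (4756971 to 4757197), both fell. miR-247 had 33.0 and 29.1 CPM in adults, against 127 and 75.6 CPM in L4 (-1.73 ± 0.31; adjusted p = 0.013), and miR-797 had 52.7 and 78.7 CPM in adults, against 340 and 150 CPM in L4 (-1.91 ± 0.47; adjusted p = 0.031). miR-230 fell by 1.05 on the log2 scale (adjusted p = 0.027), and miR-239b did not pass (1480 and 1420 CPM in adults, 1160 and 1140 CPM in L4; adjusted p = 0.13). In each of the 4 that fell, L4 replicate 1 was the higher of the 2, and the count dropped to 1 without L4 replicate 1, 0 without adult replicate 1 and 1 without adult replicate 2. From L3 on the levels fell stage by stage: miR-788-5p averaged 5260 CPM in L3, 1670 CPM in L4 and 132 CPM in adults, and miR-247 450, 101 and 31.1 CPM.

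Other guides fell by smaller amounts. miR-244 had 2020 and 1990 CPM in adults, against 4360 and 3830 CPM in L4 (log2 fold change -1.06 ± 0.14; adjusted p = 0.0056, edgeR), with 2940, 2630 and 2470 CPM in the L4 libraries of the mir-43 experiment, against which it did not pass (-0.44; adjusted p = 0.26). miR-253 fell by 1.04 on the log2 scale (adjusted p = 0.032), miR-75 by 0.67 (adjusted p = 0.027) and miR-53 by 0.59 (adjusted p = 0.040), and these 3 were lost without either L4 library or adult replicate 1, miR-75 and miR-53 also without adult replicate 2, at up to 0.18. The study's 22 EBAX-1-sensitive miRNAs, a list it chose on libraries that include these, held 9 that rose, 6 that fell and 7 that did not pass, with a median log2 fold change of 0.15. Over all strands 19.5% rose and 20% fell, with a median of 0.06. The 9 were miR-35 to miR-41, miR-43 and miR-71.

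Further strands that rose were spread over functions. miR-83, the worm miR-29 homolog, had 5790 and 6970 CPM in adults, against 3440 and 3450 CPM in L4 (log2 fold change 0.87 ± 0.18; adjusted p = 0.019, edgeR, up to 0.11 and lost without either L4 library). miR-231 had 1040 and 1070 CPM in adults, against 526 and 419 CPM in L4 (1.13 ± 0.18; adjusted p = 0.0094, and 0.064 without L4 replicate 2). miR-796, a member only through its adult level, had 8.68 and 7.40 CPM in adults, against 2.46 and 2.62 CPM in L4, a rise of 1.63 ± 0.22 on the log2 scale (adjusted p = 0.0052 by edgeR, held without any 1 library, but 0.080 by DESeq2). miR-2214 had 2020 and 1060 CPM in adults, against 385 and 688 CPM in L4 (1.47 ± 0.40; adjusted p = 0.040, up to 0.16 and lost without either L4 library or adult replicate 1). It was also the strand that differed most between the 2 sets of L4 libraries, at 26.8, 20.7 and 47.8 CPM in the mir-43 experiment. For miR-231 the L4 libraries of that experiment had 1060, 574 and 406 CPM, the first of them at the adult level.

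The 2 most abundant strands did not pass. miR-58 had 168000 and 145000 CPM in adults, against 174000 and 207000 CPM in L4 (log2 fold change -0.32 ± 0.19; adjusted p = 0.22, edgeR), and miR-52 averaged 116000 CPM in adults and 145000 CPM in L4 (-0.35 ± 0.17; adjusted p = 0.17). These were the first and second strands of all 4 libraries and together took 28.4% and 26.1% of adult counts, against 33.1% and 34.1% of L4 counts. None of the 5 members of the miR-58 family passed, nor any of the 5 of the miR-64 family, and of 6 in the miR-51 family 1 fell (miR-53). By summed counts the miR-58 family made up 24.7% ± 1.32 of the pool in adults and 29.7% ± 2.40 in L4, and the miR-51 family 22.6% ± 0.0995 in adults and 24.6% ± 2.04 in L4 (SD, n = 2 each). The tested passenger strands of the miR-58 family fell nonetheless. That of miR-58 had 209 and 199 CPM in adults, against 642 and 620 CPM in L4 (-1.66 ± 0.16; adjusted p = 0.0021, edgeR). That of miR-80 had 332 and 273 CPM in adults, against 860 and 852 CPM in L4 (-1.53 ± 0.16; adjusted p = 0.0027). In the miR-51 family that of miR-51 fell (-1.47) and that of miR-55 rose (1.31). Those of miR-52 (-0.21), miR-53 (-0.07), miR-54 (0.16) and miR-56 (1.08) did not pass. In the miR-64 family those of miR-63, miR-64 and miR-65 fell, while those of miR-66 and miR-229 did not pass.

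Of the markers of somatic tissues, 1 passed. miR-1 of body muscle had 22800 and 21800 CPM in adults, against 17800 and 19900 CPM in L4 (log2 fold change 0.21 ± 0.15; adjusted p = 0.29, edgeR). miR-60 of the intestine had 12800 and 23900 CPM in adults, against 26900 and 25300 CPM in L4 (-0.51 ± 0.34; adjusted p = 0.27), so adult replicate 1 stood below the other 3 libraries. miR-228 of glia averaged 7140 CPM in adults and 7850 CPM in L4 (-0.16 ± 0.15; adjusted p = 0.39). Of 4 neuronal miRNAs only lsy-6, which sets the left-right difference of a taste neuron pair, passed, at 34.4 and 39.5 CPM in adults, against 20.3 and 16.9 CPM in L4 (0.96 ± 0.24; adjusted p = 0.032, lost without any 1 library at up to 0.18). The summed neuronal list was 3460 to 4650 CPM in adults and 2230 to 2970 CPM in L4. In the L4 libraries of the mir-43 experiment it took 0.467% to 0.937% of counts, above both adult libraries (0.465% and 0.346%), so its direction depended on the L4 libraries used. Of 10 germline-enriched miRNAs 8 rose, where 19.5% of all strands rose. The 8 were miR-35 to miR-41, all from 1 transcript, and miR-43, while miR-42 and miR-70 did not pass. The median log2 fold change of the 10 was 3.03 beside 0.06 over all strands. Their sum was 53300 to 62500 CPM in adults, against 30700 to 33000 CPM in L4, and 0.812% of counts in germline-depleted adults. It was 0.943% to 1.98% of counts in the L4 libraries of the mir-43 experiment, beside 3.30% and 3.07% in the time-course L4 libraries. The part of germline and embryo content in the other results was not tested.

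The same stages were also sequenced in ebax-1(tm2321), a null mutant of the worm ortholog of ZSWIM8, with 2 libraries each and none shared with wild type. Within that genotype 27 strands were higher in adults and 25 lower (23.6% of 220, 12.3% and 11.4%), in a fit of all 8 libraries. Of the 43 strands higher in wild-type adults, 37 had the same direction in the mutant and 20 also passed, and of the 44 lower ones 39 had the same direction and 22 passed. No strand passed in the opposite direction. Adults of both genotypes were set against L4 larvae of the later experiment, so these values are no check of the link between stage and experiment. A test of the difference between genotypes (stage by genotype interaction, edgeR) called 1 of 220 strands (0.455%), and 29 had an unadjusted p under 0.05, while DESeq2 called 10 (4.55%; 3.64% higher and 0.909% lower). Without mutant L4 replicate 1 edgeR called 6 higher and 1 lower, and without mutant adult replicate 1 it called 1 higher and 4 lower.

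The strand called was miR-71. In ebax-1(tm2321) it had 49800 and 52600 CPM in adults, against 40500 and 41800 CPM in L4 of that genotype, a log2 fold change of 0.29 ± 0.22 (adjusted p = 0.41), where wild type had 2.58. The difference was -2.32 ± 0.32 (adjusted p = 0.015, edgeR), and up to 0.070 when mutant L4 replicate 2 or mutant adult replicate 2 was left out. DESeq2 also called miR-34, for which the mutant had 4530 and 5870 CPM in adults, against 2640 and 3190 CPM in L4 (difference -1.48 ± 0.32; adjusted p = 0.086 by edgeR and 0.0053 by DESeq2). It also called miR-788-5p, which in the mutant had 2240 and 2900 CPM in adults, against 2360 and 4760 CPM in L4 (difference 3.12 ± 0.77; adjusted p = 0.12 by edgeR and 0.0013 by DESeq2). The passenger strands of let-7 and lin-4 fell in the mutant too, by 5.05 (adjusted p = 8.8e-04) and 3.88 (adjusted p = 0.010) on the log2 scale, both in the 8-library fit. Those of miR-246, miR-85 and miR-252, which also fell in wild type, moved less or not in that direction in the mutant. That of miR-246 had 2.49 and 2.96 CPM in mutant adults, against 10.7 and 4.82 CPM in mutant L4 (-1.48 ± 0.39; adjusted p = 0.030; difference 2.89, adjusted p = 0.054 by edgeR and 0.0020 by DESeq2). That of miR-85 had 17.1 and 15.1 CPM in mutant adults, against 19.1 and 6.22 CPM in mutant L4 (0.35 ± 0.46; adjusted p = 0.65; difference 3.42, adjusted p = 0.054 by edgeR and 7.2e-05 by DESeq2). That of miR-252 had a log2 fold change of 0.50 ± 0.49 in the mutant and -2.06 in wild type (difference 2.52; adjusted p = 0.15 by edgeR and 0.027 by DESeq2). DESeq2 called these 3 differences and edgeR none. Its remaining calls were miR-359, miR-786, miR-1817 and miR-85, each with a larger rise in the mutant (differences 2.19, 1.79, 3.13 and 2.69, edgeR). In mutant L4 miR-1817 had 20.9 and 3.61 CPM, against 123 and 168 CPM in wild-type L4. For miR-359 these were 9.94 and 8.03 CPM, against 28.1 and 51.5 CPM. The mutant L4 libraries were uneven, with 859 and 163 CPM of miR-85 and 269 and 84.5 CPM of miR-246.

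How far libraries of 1 stage and genotype differed between experiments was measured on L4 worms. The 3 L4 libraries of the mir-43 experiment had a median SD of log2 CPM of 0.38. Between them and the 2 L4 libraries of the time course, edgeR called 4 strands (1.82% of 220; 2 higher and 2 lower, 0.909% each), and 47 had an unadjusted p under 0.05. The strands were miR-2214 (log2 fold change -4.08 ± 0.47; adjusted p = 0.012), miR-46 (-1.82 ± 0.28; adjusted p = 0.025) and the passenger strands of miR-229 (2.33 ± 0.34; adjusted p = 0.024) and miR-228 (2.03 ± 0.34; adjusted p = 0.033). DESeq2 called 15 higher and 10 lower in the mir-43 experiment. With 1 library left out, edgeR called 11 higher and 21 lower without the third library of the mir-43 experiment, 1 lower without time-course L4 replicate 1, and none without L4 replicate 2 or the second library of that experiment. With these 3 libraries as the reference for gravid adults, 29 strands were higher and 29 lower in adults (26.4%; 13.2% each). Of the 43 strands higher against the time-course L4 libraries, 41 kept their direction and 23 passed, and of the 44 lower ones all kept it and 26 passed, although both comparisons share the adult libraries.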

How the data were processed

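Small-RNA libraries of whole worms were made and sequenced by the authors. They removed adapters (cutadapt, fastx_trimmer; their versions are not stated in the methods), kept reads whose every base reached a quality score of 30, and assigned a read to a strand in a curated miRNA list when its initial 19 nt were identical. The deposited values are read counts per strand, with spike-in counts removed by the authors and miR-44 and miR-45 merged. A second table, of 21U-RNA counts, was not used.

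CPM were computed from all miRNA counts of a library. Strands with a mean of at least 5 CPM over the 4 libraries entered edgeR 4.0.16 in R 4.3.3, with TMM scaling and the quasi-likelihood F-test; p-values were adjusted by Benjamini-Hochberg over 220 strands and read at a threshold of 0.05. SEs are the log2 fold change divided by the square root of F. Guide to passenger ratios used limma 3.58.1 on log2 CPM + 1, the guide being the strand with more counts over the 4 libraries. Tests by DESeq2 1.42.0 and the other alternatives are in the closing section. The scripts were tested on simulated data. Tables were made with Python 3.11.15, numpy 2.4.6 and pandas 2.3.3, and figures with matplotlib 3.10.9. Positions are from the WBcel235 annotation, which matched 159 of 169 hairpins. The 2 wild-type adult libraries were not copies of each other, nor were the 2 time-course L4 libraries. Other groups were not checked for this, and the authors describe replicates as biological.

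Named strands were up to 10 with the largest change in each direction, strands of at least 20000 CPM, up to 4 of each list (seed families, transcripts, timing, heat, germline, EBAX-1-sensitive, ageing, tissue markers), all of the let-7, lin-4 and miR-35 families, and partner strands. Not every strand named by this rule is described, and miR-796, miR-2214, miR-231 and miR-253 among others were chosen after their values were seen. The members and lists were chosen with earlier results of these data known.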

Additional observations from a re-analysis of the deposited data

Results flagged for a closer look

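miR-71 differed between the genotypes in its change from L4 to gravid adult, by a test of that difference. Its log2 fold change of gravid adult over L4 was 0.29 in ebax-1(tm2321) and 2.58 in wild type (difference -2.32 ± 0.32; adjusted p = 0.015, edgeR interaction, and 2e-05 by DESeq2), with 2 libraries in each of 4 groups. The ebax-1 libraries had 49800 and 52600 CPM in adults and 40500 and 41800 CPM in L4, and the wild-type libraries had 33200 and 31700 CPM in adults and 6670 and 4020 CPM in L4. With 1 library left out the difference ranged from -2.74 to -2.08. Wild-type L4 libraries of the mir-43 experiment had more miR-71, at 0.776%, 1.64% and 0.951% of counts, than those of the time course (0.667% and 0.402%).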

How the results depend on the processing

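Depth limits the weakest strands, and with 2 libraries a group the calls rest on few degrees of freedom. Of the 43 strands higher in gravid adults 39 also passed with DESeq2 and 40 with library-size scaling, and of the 44 lower ones 41 and 42. Counts higher and lower were 22 and 32 with 8 libraries of both genotypes in 1 fit, 23 and 32 with all 5 wild-type L4 libraries as the reference (chosen after seeing the data), 29 and 29 with the L4 libraries of the mir-43 experiment, and 13 and 21 at a threshold of 0.01. With 1 library left out they ranged from 12 to 35 higher and from 21 to 33 lower. A fit of all 14 wild-type time-course libraries gave 30 and 99, with the median of all strands at -0.32. The cause of these differences was not tested.

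For guide to passenger ratios, counts higher and lower were 15 and 3 at 50 CPM, where 39 hairpins were tested, 19 and 4 with all 5 L4 libraries and 22 and 4 at a threshold of 0.01, and 5 to 34 and 0 to 12 with 1 library left out. The interaction gave 8 higher and 2 lower by DESeq2, 2 and 2 at 50 CPM, 0 and 0 at a threshold of 0.01, and 0 to 6 and 0 to 4 with 1 library left out. Between the 2 sets of L4 libraries the counts were 15 and 10 by DESeq2, 2 and 4 with no filter, 0 and 2 at 50 CPM, 0 and 0 at a threshold of 0.01, and 0 to 11 and 0 to 21 with 1 library left out.

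Without the 2 most abundant strands the miR-35 family made up 3.94% of counts in adults and 0.883% in L4, and miR-71 4.46% in adults and 0.802% in L4. Directions changed for strands that had not passed. In the fit of all 14 libraries the log2 fold change was -0.34 for miR-794, -0.07 for miR-239b, -0.30 for miR-65 (the 1 that passed, adjusted p = 0.029, edgeR), -0.26 for miR-70 and -0.16 for miR-1. Against the L4 libraries of the mir-43 experiment, then its libraries 2 and 3, then all 5 L4 libraries, it was -0.76, -0.79 and -0.37 for the miR-71 passenger strand, 0.20, 0.24 and 0.04 for miR-81, and 0.62, 0.36 and 0.14 for miR-240. For miR-52 it was 0.12 and 0.03 against the first 2 of these, and for let-7 0.42 against the first and 0.08 against all 5. With 1 library left out it ranged from -0.06 to 0.14 for miR-794 and from -0.03 to 0.29 for miR-70.

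Replicate numbers did not pair wild-type adults with L4: their replicate 1 minus replicate 2 differences correlated at r = 0.0123 across 220 strands. Between mutant and wild type r was 0.458 in adults and -0.0442 in L4, between mutant adults and mutant L4 0.0899, and between the sets of L4 libraries -0.0992. A replicate block gave 33 strands higher and 38 lower, 29 and 9 ratios, and 0 and 1 for the interaction, as did a block within each stage (chosen after seeing the data). Between the sets of L4 libraries it gave 17 and 21, but there the third library of the mir-43 experiment has no partner, and leaving it out without a block gave 11 and 21.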
